A study of Mus musculus with 42 samples.

Results

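Hedgehog pathway genes were followed in this account across 14 groups of mouse reproductive tract tissue. The members were Shh, Ihh, Dhh, Ptch1, Smo, Gli1, Gli2, Gli3 and Hhip, taken as the probe sets whose single gene symbol in the platform annotation was one of these names. Each of the 9 genes had 1 probe set, out of 19938 genes and 28856 probe sets in all. The rule uses gene names and no threshold on values.

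RNA from whole tissue was measured on 42 Affymetrix whole-transcript arrays, 3 per group. The mice were of the strain background CD1/129 and 3 to 7 months old, and the females were taken in diestrus. WT mice carried none of the mutations. AKO mice were Hoxa9,10,11-/-, and DKO mice were Hoxd9,10,11-/-. AKDH mice were Hoxa9,10,11-/-d9,10,11+/-, so they had the AKO genotype and 1 mutant copy of the Hoxd genes as well. AHDK mice were Hoxa9,10,11+/-d9,10,11-/-, the DKO genotype with 1 mutant copy of the Hoxa genes. Uterus and vas deferens (the muscular duct that carries sperm from the epididymis) were taken from all 5 genotypes. Oviduct and caudal epididymis, the neighbouring segments of the same tracts, were taken from WT and AKO. Whole tissue was used, so fewer cells of a type and less RNA per cell cannot be told apart.

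Hedgehog ligands are secreted proteins made largely by epithelium in these tracts and received by the mesenchyme around it. They bind the receptor Patched 1 (Ptch1), which otherwise holds back the membrane protein Smoothened (Smo), and the signal ends in the GLI transcription factors. Gli2 and Gli3 carry the signal to the nucleus, and Ptch1, Gli1 and the ligand-binding inhibitor Hhip are themselves transcribed in responding cells, so their RNA is commonly read as a measure of pathway activity. In uterus, Ihh is induced in the epithelium by progesterone and acts on the stroma.

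Promoters show what the measured genes have before their start sites, and 7 of the 9 members matched the RefSeq promoter table, build GRCm38.p6. Shh and Gli1 had no entry. Ptch1 is shown because it was the member that rose in the vas deferens of all 4 mutants, and Ihh because its arrays in AKO epididymis were the highest of the male arrays. Each sequence is the 250 bases before the annotated start, read 5′ to 3′ on the strand of the gene, and capitals mark the core of the GLI binding site, CCACCC, or its reverse complement GGGTGG.
Ptch1, chr13:63565736-63565985, minus strand: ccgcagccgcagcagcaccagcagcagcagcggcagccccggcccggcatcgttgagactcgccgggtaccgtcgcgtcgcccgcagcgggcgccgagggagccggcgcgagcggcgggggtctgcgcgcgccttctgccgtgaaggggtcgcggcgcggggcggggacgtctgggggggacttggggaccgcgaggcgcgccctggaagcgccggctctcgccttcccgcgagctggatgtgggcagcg
Ihh, chr1:74951673-74951922, minus strand: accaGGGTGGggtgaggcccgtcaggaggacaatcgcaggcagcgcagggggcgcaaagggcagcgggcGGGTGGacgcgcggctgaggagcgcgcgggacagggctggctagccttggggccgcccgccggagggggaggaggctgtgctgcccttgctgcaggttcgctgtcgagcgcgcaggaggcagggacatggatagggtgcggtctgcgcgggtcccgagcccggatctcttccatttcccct
The Ptch1 sequence held 41 CpG dinucleotides and was 78.4% G or C, and the Ihh sequence held 24 CpG dinucleotides and was 72% G or C. The medians over all promoters in the table were 6 CpG dinucleotides and 52.4% G or C. The core was found on either strand in 6 of the 7 member promoters, the exception being Ptch1, and in 28.1% of the 32851 promoters searched. The 7 member promoters were 59.6% to 78.4% G or C, and the core is itself made mostly of these bases. The shares over all promoters given here were not matched for base composition, so the counts cannot be read as an excess or a lack. The full consensus GACCACCCA, which contains the core, was found in none of the 7 and in 0.225% of all promoters. The letters TTTATNG, bound by the posterior class of HOX proteins, were in none of the 7 and in 9.81% of all. A match of letters is not a bound site, and its lack says only that these letters were not in this window.

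Values are on a log scale taken as log2. The deposited table had been centred so that every probe set has a median of 0 over the 21 arrays of a sex. A value therefore gives how far a gene lay from its own median in that sex. Levels can be compared within a gene and a sex, and no gene can be set above another. A few libraries stood apart. WT oviduct replicate 2 had Xist at -5.92 and the Y-linked Eif2s3y at 2.09, where the other female arrays lay between -0.42 and 0.72 for Xist. AKDH vas replicate 3 had 10 sperm and spermatid markers at a mean of 1.09, against -1.01 and -0.78 in the other AKDH vas arrays. AKO epididymis replicate 1 had 11 markers of the proximal epididymis at a mean of 5.11, against 0.52 and 0.64. Values without these arrays are given beside the results that rest on them. The mutated gene Hoxa11 lay at 0.43 or more in the WT vas arrays, and at -0.37 or less in those of AKO and AKDH. The WT uterus arrays read 2.75, 1.23 and 2.19 for it. The AKDH uterus arrays (-1.57, -0.61 and 0) and AKO uterus arrays (-1.59, 0.67 and -0.59) lay lower, with AKO uterus replicate 2 the nearest to WT. Hoxd9 was below all WT arrays in DKO and AHDK vas, at -0.56 or less against -0.26 or more, but in uterus its DKO and AHDK arrays (0 to 0.32) lay within the WT range (-0.10 to 0.50). Motile cilia markers marked the oviduct, at 3.24 to 3.72 in WT oviduct and -0.03 to -0.02 in WT uterus.

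In vas deferens, Ptch1 rose in all 4 mutants and Shh rose in both mutants that are homozygous for the Hoxa mutation. Dhh fell slightly in those same mutants and Gli2 fell in AKDH. Several of these calls, described below, were lost when 1 array was left out or under another setting. Of the 90 tests of a member in a mutant against WT of its tissue, 9 were called at a limma adjusted p below 0.05, and all 9 were in vas deferens. Called genes there made up 9.35% of all genes tested for AKO, 5.87% for DKO, 24.3% for AKDH and 4.15% for AHDK. The members called were 3 of 9 in AKO (Shh, Ptch1 and Dhh), 1 of 9 in DKO (Ptch1), 4 of 9 in AKDH (Shh, Ptch1, Dhh and Gli2) and 1 of 9 in AHDK (Ptch1). The median change over the 9 members was 0.01, 0.11, -0.06 and -0.08 in that order of mutants, beside -0.02, 0.02, -0.05 and -0.01 over all genes. The 4 comparisons share the same 3 WT arrays. Mutant and WT arrays did not overlap in 33.1% of all genes for AKO, 30% for DKO, 41.5% for AKDH and 21.5% for AHDK. Of the 9 members, 4, 3, 5 and 3 in that order did not overlap.

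**Figure D1:**
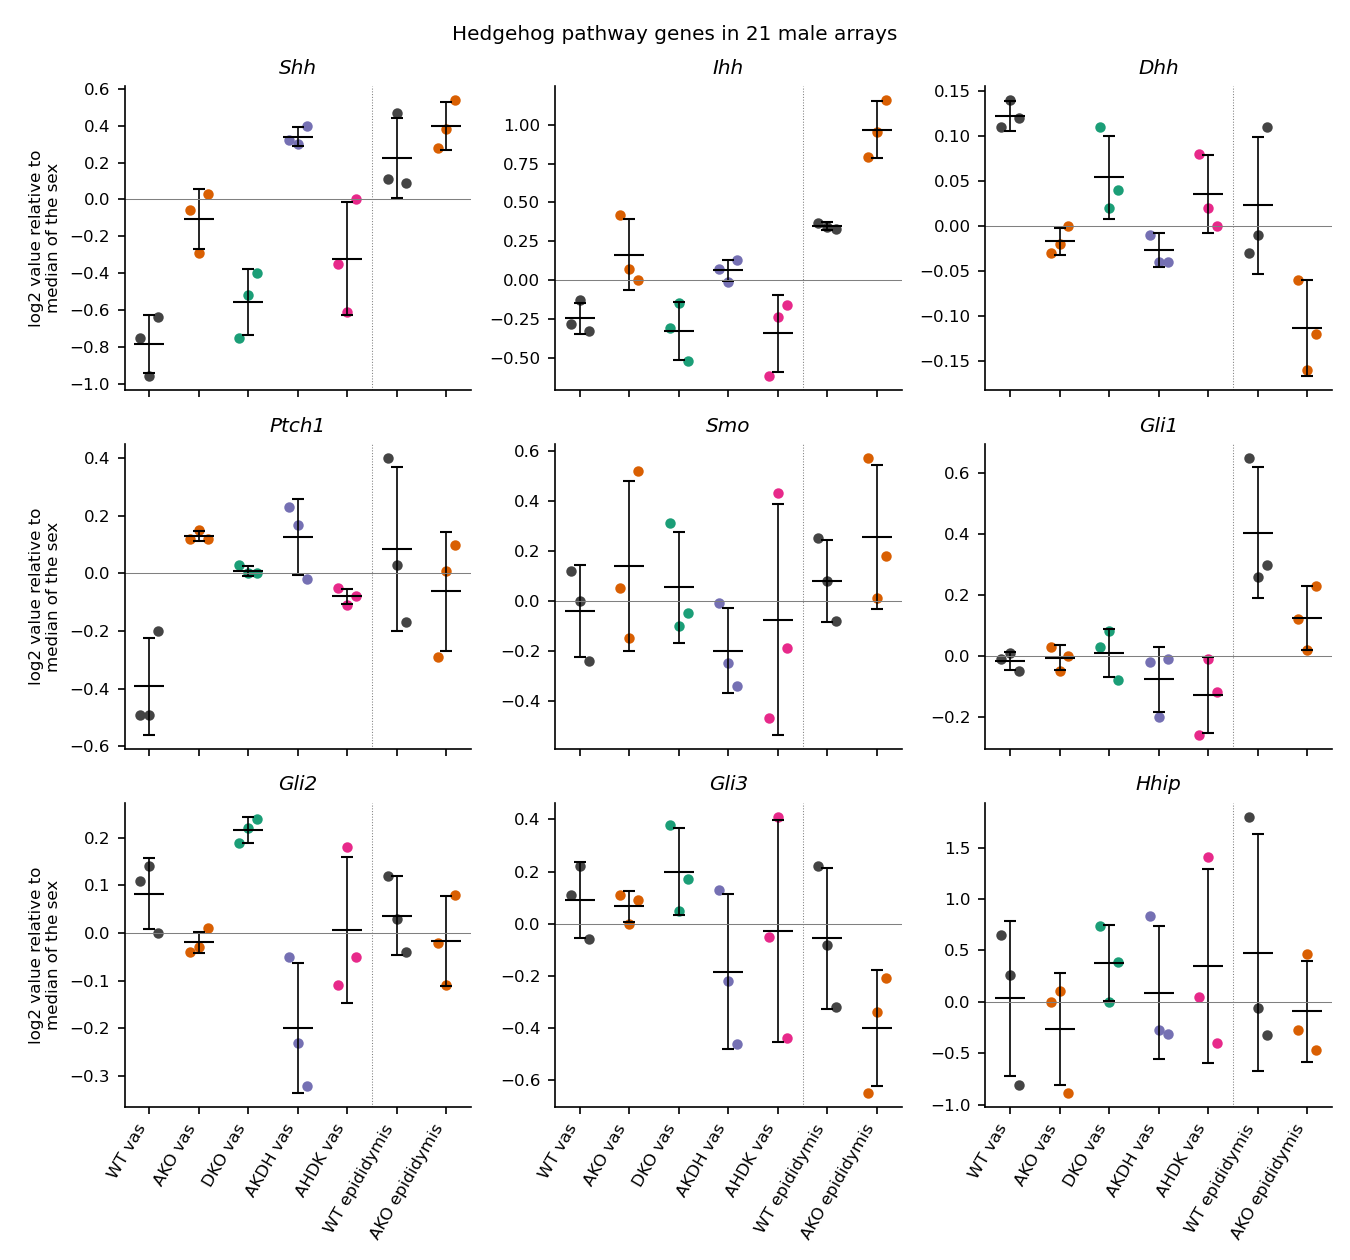
Values of the 9 Hedgehog genes in the 21 male arrays, as log2 relative to the median of the male arrays, with 1 point per array and the group mean ± SD (n = 3) as bars. The WT vas arrays are the lowest of the vas arrays for Ptch1 (-0.49, -0.49 and -0.20), and the AKO epididymis arrays are the highest for Ihh (0.79, 0.95 and 1.16). The vertical scales differ between genes.

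Sonic hedgehog (Shh), the ligand best known from limb, gut and prostate development, read -0.75, -0.96 and -0.64 in WT vas. It read -0.06, -0.29 and 0.03 in AKO and 0.32, 0.30 and 0.40 in AKDH. Neither group overlapped WT, and the AKDH arrays were the highest of the vas arrays. The rise was 0.68 in AKO (SE 0.14, 95% interval 0.36 to 0.99, limma adjusted p = 0.012) and 1.13 in AKDH (SE 0.14, interval 0.81 to 1.44, adjusted p = 0.000296). DKO arrays read -0.75, -0.52 and -0.40, 1 of them within the WT range and 2 above it, a difference of 0.23 that was not called (interval -0.09 to 0.54, adjusted p = 0.425). AHDK arrays read -0.35, -0.61 and 0, all above WT and with the widest spread, a difference of 0.46 that was not called (interval 0.15 to 0.78, adjusted p = 0.103). Without AHDK vas replicate 2 the AHDK difference was 0.61 with an adjusted p of 0.0389.

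The order of Shh thus ran from WT through DKO, AHDK and AKO to AKDH, with neighbours in that order overlapping except AKO and AKDH. Over the 4 mutants together the limma F test for Shh gave an adjusted p of 0.00143, in a tissue where 24.1% of genes passed that test. Tested directly, Shh was lower in DKO than in AKO by -0.45 (interval -0.77 to -0.14, adjusted p = 0.0498) and higher in AKDH than in AHDK by 0.66 (interval 0.35 to 0.98, adjusted p = 0.0256). The former call was lost in 5 of the 6 fits that left out 1 array, all but that without AKO vas replicate 2, and the latter in all but that without AHDK vas replicate 3. Without AKDH vas replicate 3 the latter was 0.63 (adjusted p = 0.0649). The comparison of AKDH with AHDK called 4.05% of all genes and 1 of 9 members. The difference between AKDH and AKO, 0.45, was not called (interval 0.13 to 0.76, adjusted p = 0.177). That comparison called 0 of 9 members by limma and 1.29% of all genes, with 2 members at an unadjusted p below 0.05, and AHDK against DKO called 0 of 9 and 0.366%, with 1 member. The Shh rise in AKDH held without AKDH vas replicate 3, at 1.10 (adjusted p = 0.0013). The rise in AKO lost its call without WT vas replicate 2 (0.59, adjusted p = 0.0594), without AKO vas replicate 3 (0.61, adjusted p = 0.051) and after quantile normalisation (0.47, adjusted p = 0.0957).

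Indian hedgehog (Ihh) read -0.28, -0.13 and -0.33 in WT vas and 0.42, 0.07 and 0 in AKO. The groups did not overlap, and the difference of 0.41 was not called (interval 0.11 to 0.71, adjusted p = 0.089). AKDH arrays, at 0.07, -0.01 and 0.13, were also all above WT, by 0.31 (adjusted p = 0.121), while DKO and AHDK arrays overlapped WT. Between mutants, Ihh was lower in DKO (-0.31, -0.15 and -0.52) than in AKO by -0.49 (interval -0.79 to -0.19, adjusted p = 0.0288). That comparison called 17.8% of all genes, and 2 of the 9 members, Ihh and Shh. The Ihh call was lost in 3 of the 6 fits that left out 1 array (AKO vas replicate 1 and DKO vas replicates 1 and 3), at adjusted p of 0.114, 0.0724 and 0.105.

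Desert hedgehog (Dhh), known from Sertoli and Schwann cells, moved the other way by a small amount. WT vas read 0.11, 0.14 and 0.12, AKO -0.03, -0.02 and 0, and AKDH -0.01, -0.04 and -0.04. The falls were -0.14 in AKO (interval -0.23 to -0.05, adjusted p = 0.0464) and -0.15 in AKDH (interval -0.24 to -0.06, adjusted p = 0.0177). The spread of Dhh within vas groups, an SD of 0.03, stood at percentile 1.89 of all genes, whose median SD was 0.11. The AKO call was lost in each of the 6 fits that left out 1 array, and with the array median subtracted (adjusted p = 0.0635). The AKDH call was lost without WT vas replicate 2 (adjusted p = 0.065), without AKDH vas replicate 2 (0.0518), after quantile normalisation (0.0691) and with the array median subtracted (0.0644). It was -0.14 (adjusted p = 0.0394) without AKDH vas replicate 3. With the compared groups fitted alone both Dhh calls were lost (adjusted p = 0.0846 in AKO and 0.0786 in AKDH). Schwann cell markers ranged from -0.03 to 0.33 in WT vas and from 0.01 to 0.02 in AKO vas over 9 measured genes, and their part in the Dhh values was not tested.

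Ptch1, the Hedgehog receptor and a transcriptional target of the pathway, was the most regular of the members in this tissue. It read -0.49, -0.49 and -0.20 in WT vas. AKO arrays read 0.12, 0.15 and 0.12, and AKDH arrays 0.23, 0.17 and -0.02. DKO arrays read 0.03, 0 and 0, and AHDK arrays -0.05, -0.11 and -0.08. All 12 mutant arrays lay above all 3 WT arrays. The SD was 0.02 in AKO, 0.02 in DKO and 0.03 in AHDK, and wider in AKDH (0.13) and WT (0.17). The rises were 0.52 in AKO (SE 0.08, interval 0.35 to 0.70, adjusted p = 0.00193), 0.52 in AKDH (SE 0.08, interval 0.35 to 0.69, adjusted p = 0.00084), 0.40 in DKO (interval 0.23 to 0.57, adjusted p = 0.0169) and 0.31 in AHDK (interval 0.14 to 0.48, adjusted p = 0.0483).

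The Ptch1 rises differed in how well they stood up to the choice of arrays. Those in AKO and AKDH kept their call without any 1 array, at 0.47 to 0.62 and 0.47 to 0.62 in turn, and the AKDH rise was 0.59 (adjusted p = 0.000514) without AKDH vas replicate 3. The DKO rise lost its call in 5 of 6 such fits, all but that without WT vas replicate 3, at 0.35 to 0.41. The AHDK rise also lost its call in 5 of 6, all but that without WT vas replicate 3, at 0.26 to 0.33, and after quantile normalisation (0.29, adjusted p = 0.0545). With the compared groups fitted alone, the AHDK and DKO calls were both lost (adjusted p = 0.205 and 0.0589). The AHDK call was lost with a replicate block (0.0861) and with the genes of lowest SD left out (0.0572) as well. Ptch1 did not pass the test between any pair of the mutants compared. AKDH and AKO had nearly equal means (interval of the difference -0.18 to 0.17), and AKDH was higher than AHDK by 0.21 (interval 0.03 to 0.38, adjusted p = 0.177).

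Smo, which passes the signal from Ptch1 into the cell, showed no called change in vas deferens. Its arrays ranged from -0.47 to 0.43 within AHDK alone, and the SD within vas groups was 0.30, larger than in 89.5% of genes. Gli1, the other usual readout of the pathway, stayed between -0.26 and 0.08 in all 15 vas arrays. The Gli1 difference was 0.01 in AKO (interval -0.15 to 0.16, adjusted p = 0.963) and -0.06 in AKDH (interval -0.22 to 0.09, adjusted p = 0.551), or -0.09 (adjusted p = 0.411) without AKDH vas replicate 3. Within vas groups the SD of Gli1 was 0.09, larger than in 29.5% of genes. Whether the changes of Gli1 and Ptch1 differed was not tested. Centring took away the absolute level, so a Gli1 signal too low to vary cannot be told from an unchanged one.

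Gli2, the main activating GLI factor, read 0.11, 0.14 and 0 in WT vas and -0.05, -0.23 and -0.32 in AKDH. The AKDH arrays lay below all WT arrays, by -0.28 (interval -0.46 to -0.11, adjusted p = 0.0243). The Gli2 fall was -0.22 without AKDH vas replicate 3 (adjusted p = 0.0742), and it lost its call without WT vas replicates 1 or 2 or AKDH vas replicate 2 as well (adjusted p = 0.0659, 0.088 and 0.0675) and with the compared groups fitted alone (0.0826). In DKO, Gli2 read 0.19, 0.22 and 0.24, all above WT, a difference of 0.13 that was not called (interval -0.04 to 0.31, adjusted p = 0.39). Gli2 was higher in DKO than in AKO by 0.24, which was not called (interval 0.06 to 0.41, adjusted p = 0.0624). That difference was called with the compared groups fitted alone (adjusted p = 0.013), with array weights (0.00783) and without AKDH vas replicate 3 in the fit (0.0449). Gli3, the main repressing GLI factor, overlapped WT in all 4 mutants, with differences from -0.27 in AKDH to 0.11 in DKO. Hhip, the secreted-ligand trap at the cell surface, had the widest spread of the members, an SD within groups of 0.68 that was larger than in 98.6% of genes. A WT range from -0.81 to 0.65 took in most mutant arrays, and the AKO interval reached from -1.41 to 0.81.

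**Figure D2:**
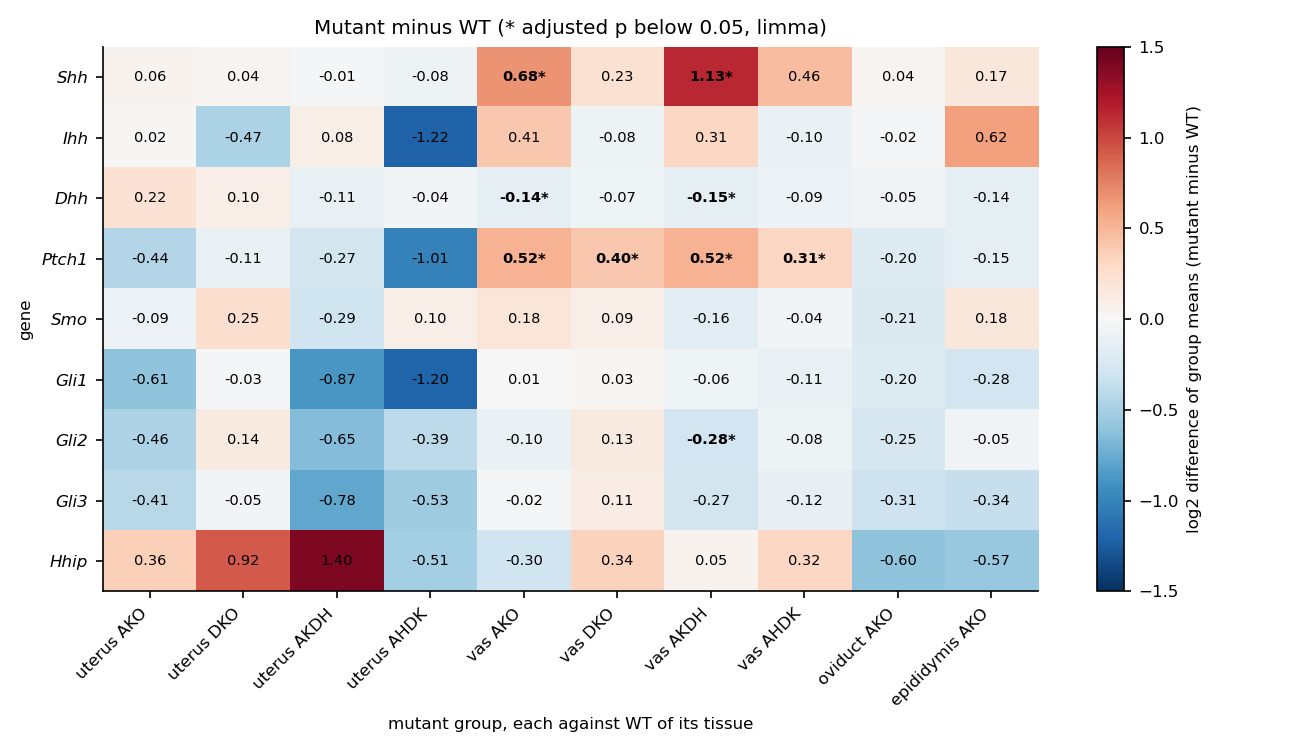
Differences of group means, mutant minus WT of the same tissue, for the 9 Hedgehog genes (down) in 10 comparisons (across), as colour and as printed log2 values, with bold and a star for a limma adjusted p below 0.05. The 9 stars lie in the vas deferens columns, 4 of them on Ptch1 (0.52, 0.40, 0.52 and 0.31), and the lowest values lie in the uterus AHDK column.

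Some genes that handle the ligands also rose in vas deferens. Of all genes, 4.91% rose and 4.44% fell in AKO, and 3.85% rose and 2.02% fell in DKO. In AKDH 9.57% of all genes rose and 14.8% fell, and in AHDK 2.08% rose and 2.07% fell. Of 13 measured genes for ligand processing, release and co-reception, 3 rose and 0 fell in AKO, 2 rose and 0 fell in DKO, 3 rose and 2 fell in AKDH, and 2 rose and 0 fell in AHDK. Disp2, a relative of the Dispatched protein that releases lipid-bearing ligand, read -0.80, -0.88 and -1.13 in WT vas and was higher in every mutant array. Its rises were 0.83 in AKO (adjusted p = 0.0075), 0.73 in DKO (0.0262), 1.33 in AKDH (0.000207) and 0.73 in AHDK (0.0274), by limma.

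Lrp2, an endocytic receptor of epithelia that can bind SHH, read -1.01, -1.81 and -1.0 in WT vas. All arrays of AKO (0.31, 0.32 and 0.20) and of AKDH (0.50, 0.45 and 0) lay higher. Its rises were 1.55 (adjusted p = 0.00538) and 1.59 (adjusted p = 0.00217). Gpc3, a cell-surface glypican that can hold Hedgehog ligand away from Ptch1, rose in AKO (0.99, adjusted p = 0.00823), AKDH (0.79, adjusted p = 0.0133) and AHDK (0.92, adjusted p = 0.0247). Hhat, the enzyme that attaches palmitate to the ligands, rose in DKO (0.31, adjusted p = 0.0294), and Scube1, a secreted protein of a family that helps ligand release, fell in AKDH (-0.38, adjusted p = 0.0113). The list's median change was 0.09 in AKO and 0.03 in AKDH, so the rises were those of single genes.

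Of 17 measured cytoplasmic transducers, Sufu was the one that recurred among the calls. It binds GLI proteins and holds them in check. Sufu read -0.39, -0.37 and -0.28 in WT vas and rose by 0.29 in AKO (adjusted p = 0.0358), 0.35 in DKO (adjusted p = 0.0274) and 0.47 in AKDH (adjusted p = 0.00132). Spop, a ubiquitin ligase adaptor that acts on GLI2 and GLI3, rose in AKDH (0.45, adjusted p = 0.0103). In AHDK 0 of the 17 were called.

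Reported Hedgehog targets of mesenchyme showed no common direction. Called genes made up 9.35% of all genes for AKO, 5.87% for DKO, 24.3% for AKDH and 4.15% for AHDK. Of 15 measured, 1 rose in AKO (Jag2, a Notch ligand, 0.40, adjusted p = 0.0158) and 1 in DKO (Tbx3, a T-box factor, 0.32, adjusted p = 0.0424). In AKDH 2 rose, among them Jag2 (0.58, adjusted p = 0.000995), and 3 fell: Hand2 (-0.39, adjusted p = 0.00753), Mycn (-0.99, adjusted p = 0.0195) and Foxl1 (-0.31, adjusted p = 0.0279). In AHDK 0 of 15 were called. Of 11 measured genes of transport in the primary cilium, the organelle in which the signal is relayed, 6 rose and 0 fell in AKDH, and 3 rose without AKDH vas replicate 3. With all arrays, 9.57% of all genes rose in AKDH and 14.8% fell.

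The other pathway genes named for AKDH vas were called without AKDH vas replicate 3 as well. Among the ligand-handling genes Disp2 was then 1.40 (adjusted p = 0.000517), Lrp2 1.75 (0.00301), Gpc3 0.69 (0.0411) and Scube1 -0.35 (0.0324). Of the transducers, Sufu was 0.43 (adjusted p = 0.00507) and Spop 0.48 (0.0163). Of the targets, Jag2 was 0.68 (adjusted p = 0.00038), Hand2 -0.43 (0.00944), Mycn -0.94 (0.0474) and Foxl1 -0.36 (0.0253).

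Markers of other cell types moved in the same comparisons. Of 9 measured adipocyte markers, 6 rose in AKO, 8 in AKDH, 8 in AHDK and 0 in DKO. Their mean level ranged from -1.20 to 0.03 in WT vas, 0.21 to 1.22 in AKO, -0.55 to -0.24 in DKO, 1.02 to 1.28 in AKDH and 0.88 to 1.43 in AHDK. Of 10 smooth muscle markers, 2 fell in AKO and 8 in AKDH, with mean levels of 0.28 to 0.76 in WT, -0.35 to 0.09 in AKO and -0.45 to -0.06 in AKDH, against 0.53 to 0.81 in DKO. Of 11 epithelium markers, 1 rose in AKO and 4 rose and 1 fell in AKDH, with mean levels of -0.31 to 0.03 in WT, 0.00 to 0.18 in AKO and 0.05 to 0.18 in AKDH. Without AKDH vas replicate 3 the AKDH counts were 8 adipocyte markers risen, 6 smooth muscle markers fallen and 3 epithelium markers risen. Of 11 proximal epididymis markers, 1 rose in AKO and 2 rose and 1 fell in AKDH. Their mean level ranged from -0.68 to -0.34 in WT vas, -0.12 to 0.10 in AKO, -0.63 to -0.37 in DKO, -0.37 to -0.01 in AKDH and -0.20 to 0.05 in AHDK. Of 10 sperm and spermatid markers, 2 fell in AKO and 2 in AKDH, with mean levels of -0.05 to 0.44 in WT vas, -0.71 to -0.42 in AKO, -0.52 to 0.66 in DKO, -1.01 to 1.09 in AKDH and -0.16 to 1.07 in AHDK. The part of these markers in the member and pathway-gene differences in vas was not tested. No marker could be read as absent, because centring took away the absolute level.

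Between the male tissues, WT caudal epididymis held more Shh, Ihh, Ptch1 and Gli1 RNA than WT vas deferens. These 4 of 9 members were called, where 28.1% of all genes were. Arrays of the 2 tissues did not overlap for 4 of 9 members and for 43.7% of all genes. Shh read 0.11, 0.47 and 0.09 in WT epididymis, above all WT vas arrays, by 1.01 (interval 0.70 to 1.32, limma adjusted p = 6.34e-05). Ihh read 0.37, 0.34 and 0.33 and was higher by 0.59 (interval 0.32 to 0.87, adjusted p = 0.0025). Gli1 read 0.65, 0.26 and 0.30 against -0.01, 0.01 and -0.05 in WT vas, and was higher by 0.42 (interval 0.22 to 0.62, adjusted p = 0.00249). Ptch1 read 0.40, 0.03 and -0.17, just clear of the WT vas arrays, and was higher by 0.48 (interval 0.22 to 0.74, adjusted p = 0.00756). With the replicate number as a block, taken here as the animal, the Ptch1 difference was no longer called (adjusted p = 0.0698). Nor was it called with the compared groups fitted alone (0.0816). Of the 10 sperm and spermatid markers 9 were higher in WT epididymis, at 1.82 to 3.18 against -0.05 to 0.44 in WT vas. Their part in the Gli1 difference and the others was not tested.

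In AKO the same tissue difference was called for Ihh and Shh, 2 of 9 members where 15.5% of all genes were called. Ihh read 0.79, 0.95 and 1.16 in AKO epididymis, the highest of the 21 male arrays, and was higher than in AKO vas by 0.80 (interval 0.53 to 1.08, adjusted p = 0.000513). Without AKO epididymis replicate 1 it was 0.89 (adjusted p = 0.000681), and after quantile normalisation 0.49 (adjusted p = 0.0541). Shh read 0.28, 0.38 and 0.54 and was higher by 0.50 (interval 0.20 to 0.81, adjusted p = 0.0271), or 0.56 (adjusted p = 0.0321) without AKO epididymis replicate 1. With the animal as a block the Shh difference lost its call (adjusted p = 0.0554), and so it did in 4 of the 6 fits that left out 1 array (AKO epididymis replicates 2 and 3, AKO vas replicates 1 and 2; 0.41 to 0.52). Ptch1 was on the other side of AKO vas, at -0.29, 0.01 and 0.10 in AKO epididymis, a difference of -0.19 that was not called (interval -0.45 to 0.07, adjusted p = 0.308), or -0.08 (adjusted p = 0.699) without AKO epididymis replicate 1.

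The effect of AKO on Ptch1 was called as different between the tissues in the fit without a block. Against WT, Ptch1 was higher in AKO vas by 0.52, and in AKO epididymis it differed by -0.15 (interval -0.56 to 0.27, adjusted p = 0.765), or by -0.03 (adjusted p = 0.962) without AKO epididymis replicate 1. The difference of these effects was -0.67 (interval -1.04 to -0.30, adjusted p = 0.0283), the 1 of 9 members called where 7.22% of all genes were. It was -0.55 without AKO epididymis replicate 1 and the other libraries set apart (adjusted p = 0.0528). Its adjusted p was 0.147 with the animal as a block and 0.0947 with the compared groups fitted alone. For Shh the difference of effects was -0.51 (interval -0.94 to -0.07, adjusted p = 0.167) and for Gli1 -0.29 (interval -0.57 to -0.01, adjusted p = 0.222). Without the libraries set apart these were -0.45 (adjusted p = 0.285) and -0.29 (0.279).

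Within the epididymis, 0 of 9 members were called between AKO and WT by limma, where 0.782% of all genes were, and 1 member had an unadjusted p below 0.05. That member was Ihh, 0.62 higher in AKO (interval 0.38 to 0.86, adjusted p = 0.0623), with no overlap between the 3 AKO and 3 WT arrays. Of all genes, 22.1% did not overlap between these groups. Without AKO epididymis replicate 1, the array with proximal epididymis markers, the difference was 0.71 with an adjusted p of 0.0343. The sperm and spermatid markers differed between these groups too, at 1.82 to 3.18 in WT epididymis and -0.45 to -0.07 in AKO epididymis, with 4 of 10 fallen and 0 risen. Smooth muscle markers lay at -0.83 to -0.19 in WT epididymis and -1.86 to -1.29 in AKO epididymis, with 2 of 10 fallen. Without AKO epididymis replicate 1 the falls numbered 3 sperm and 0 smooth muscle markers. The part of both lists in the Ihh difference was not tested. Smooth muscle markers were lower in epididymis than in vas, 10 of 10 in WT and 9 of 10 in AKO, beside 16.8% and 8.31% of all genes.

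Of the 13 ligand-handling genes, 4 were higher and 0 lower in WT epididymis than in WT vas, where 28.1% of all genes were called: Hhatl (1.40, adjusted p = 9.3e-06), Disp2 (2.04, adjusted p = 3.02e-05), Gpc3 (1.32, adjusted p = 3.62e-05) and Lrp2 (2.09, adjusted p = 0.000362). Disp2 read 1.37, 1.00 and 0.93 in WT epididymis. Of 15 targets, 1 was higher and 4 were lower, with the cyclins apart: Ccnd2 was higher by 1.78 (adjusted p = 0.000121) and Ccnd1 lower by -1.46 (adjusted p = 5.31e-07). Foxf2 and Osr1, transcription factors of mesenchyme, were lower by -2.0 (adjusted p = 0.000187) and -1.61 (adjusted p = 0.000653).

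**Figure D3:**
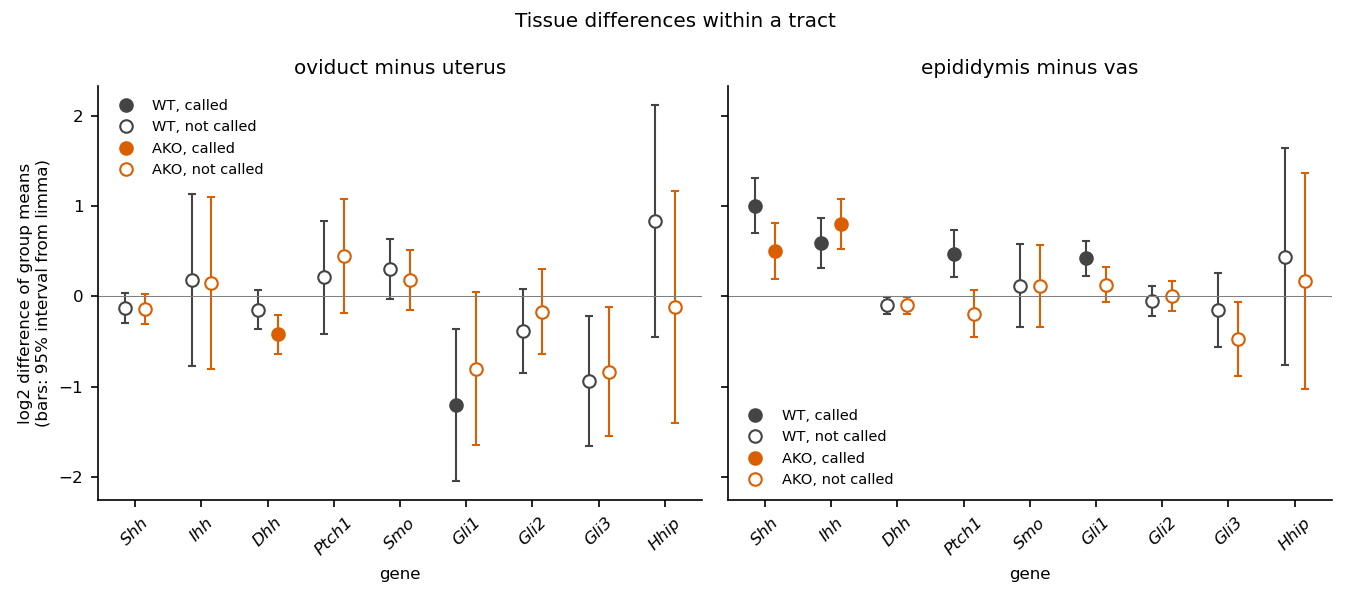
Differences between the 2 tissues of a tract for each Hedgehog gene, oviduct minus uterus on the left and epididymis minus vas deferens on the right, as log2 with 95% intervals from limma, in WT (grey) and AKO (orange). Filled points have an adjusted p below 0.05. In the male tract WT has 4 filled points and AKO 2, and the Ptch1 points lie on opposite sides of 0 (0.48 and -0.19).

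In uterus 0 of the 36 tests of a member in a mutant against WT were called by limma, and 7 had an unadjusted p below 0.05 (3 in AKDH, 3 in AHDK, 1 in AKO and 0 in DKO). Of all genes, 22.7%, 21.4%, 9.35% and 15.3% in that order had an unadjusted p below 0.05. Called genes made up 0.0903% of all genes for AKO, 0.973% for DKO, 6.58% for AKDH and 3.53% for AHDK. The uterine arrays of these genes were spread widely. Within genotypes the SD of Ihh was 0.69, larger than in 98.2% of genes, that of Gli1 was 0.55 (96.2%) and that of Ptch1 was 0.44 (93.5%), where the median gene had 0.14.

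AHDK was the uterine group in which most members lay low. Of the 9, 8 were below WT, and the median change was -0.51, beside -0.02 over all genes. In 4 of them (Ptch1, Gli1, Gli2 and Gli3) no AHDK array reached a WT array, where 29.6% of all genes did not overlap. Ihh read -1.57, -0.88 and -1.39 in AHDK uterus and -1.18, 0.07 and 0.92 in WT, so WT replicate 1 was as low as the mutants. The Ihh difference was -1.22 (interval -2.34 to -0.09, adjusted p = 0.2). Ptch1 read -0.99, -0.93 and -0.88 in AHDK and 0.28, -0.35 and 0.31 in WT, a difference of -1.01 (interval -1.74 to -0.29, adjusted p = 0.11). Gli1 read -0.77, -0.05 and -0.33 in AHDK and 0.68, 0.24 and 1.53 in WT, a difference of -1.20 (interval -2.09 to -0.30, adjusted p = 0.121). With 1 array left out at a time the difference ranged from -1.78 to -0.73 for Ihh, -1.23 to -0.90 for Ptch1 and -1.49 to -0.84 for Gli1, and none was called. The Ihh value was -0.73 without WT uterus replicate 3 and -1.78 without WT uterus replicate 1.

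These 3 differences passed the threshold when arrays were weighted by quality, at -1.59 for Ihh (adjusted p = 0.0242), -0.97 for Ptch1 (0.0213) and -1.36 for Gli1 (0.0188). That setting called 3227 of all genes in place of 704. No marker list of a cell type had a called gene in AHDK uterus against WT. Mean levels of urothelium markers were -0.91 to -0.30 in WT and -0.09 to 0.08 in AHDK, and those of epithelium markers -0.30 to -0.11 and 0.15 to 0.19. Smooth muscle markers were at -0.42 to 0.52 in WT and -0.44 to -0.07 in AHDK, and stromal markers at -0.24 to 0.23 and 0.06 to 0.11. The part of these markers in the AHDK differences was not tested. Against DKO, from which AHDK differs by 1 mutant Hoxa copy, all 9 members were lower in AHDK and 0 were called by limma (0.0251% of all genes), with 4 at an unadjusted p below 0.05 beside 7.47% of all genes. Ptch1 differed by -0.90 (interval -1.62 to -0.17, adjusted p = 0.554), Gli1 by -1.17 (interval -2.07 to -0.28, adjusted p = 0.524) and Hhip by -1.43 (interval -2.85 to -0.02, adjusted p = 0.662). The other comparisons of uterine mutants also called 0 of 9 members by limma. All genes called were 0.186% for DKO against AKO, 0% for AKDH against AKO, 1.72% for AKDH against AHDK and 4.45% for the F test over the 4 mutants, with 2, 1, 4 and 4 members at an unadjusted p below 0.05. Of all genes 13.6%, 10.3%, 15.6% and 23.8% were below it.

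**Figure D4:**
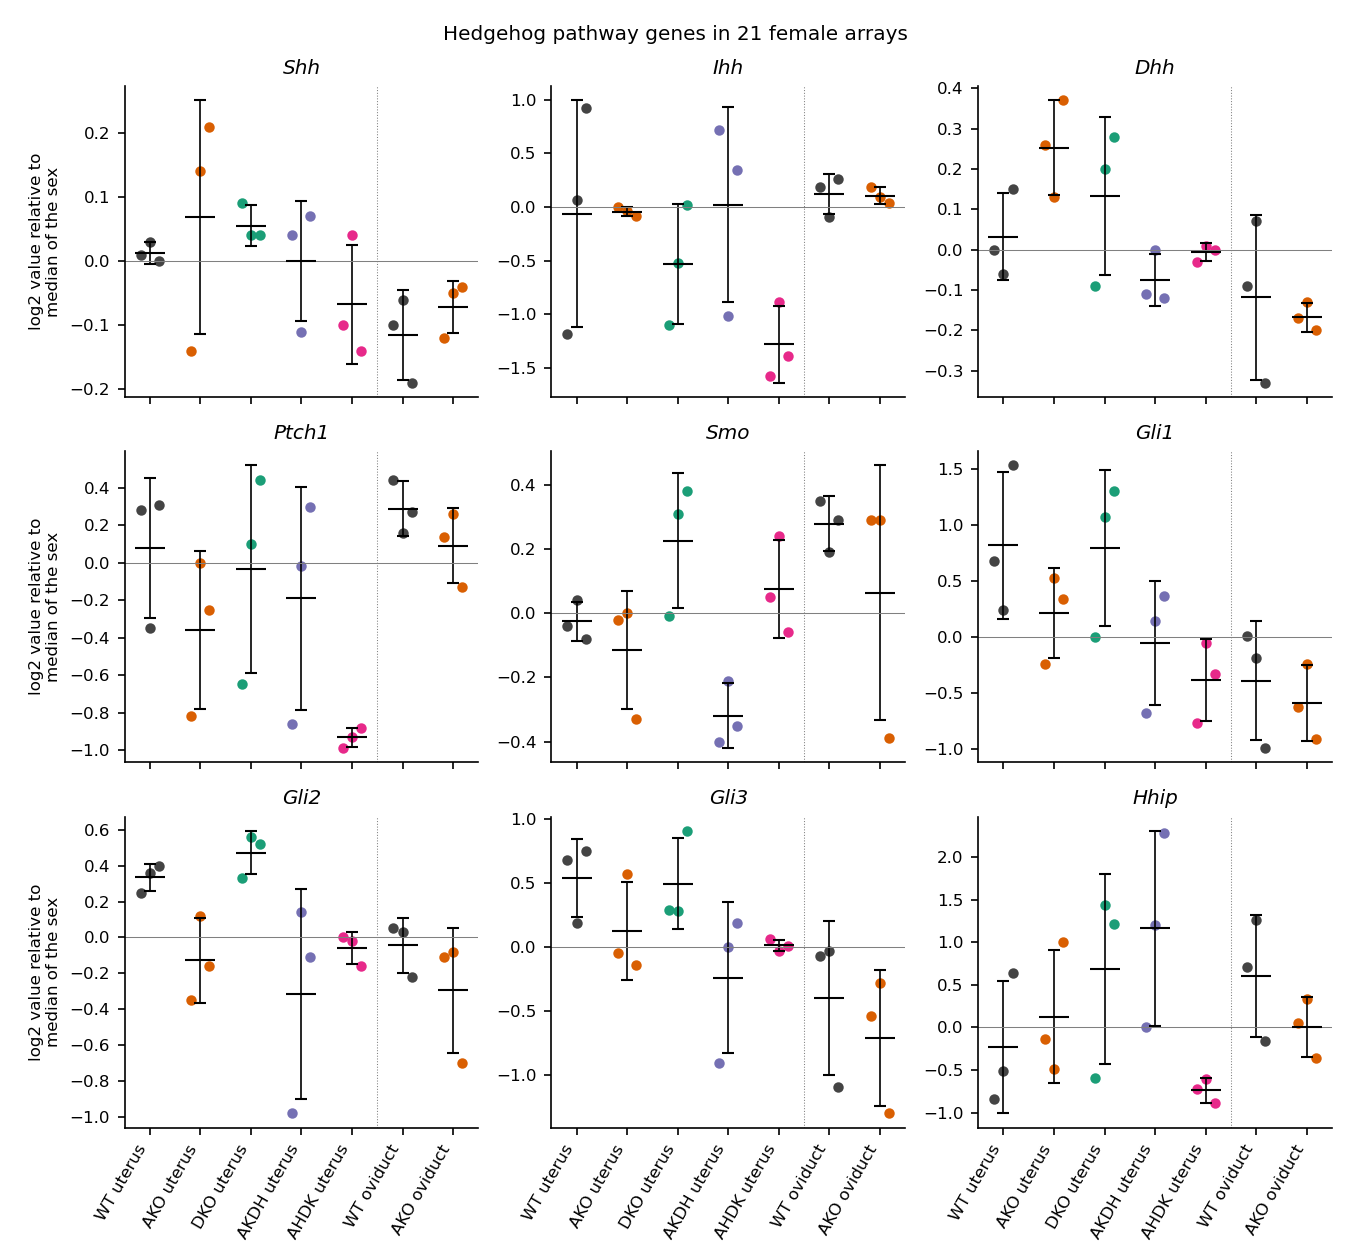
Values of the 9 Hedgehog genes in the 21 female arrays, as log2 relative to the median of the female arrays, with 1 point per array and the group mean ± SD (n = 3) as bars. The AHDK uterus arrays lie close together for Ptch1 (-0.99, -0.93 and -0.88), while the other uterus groups spread over most of the range. The vertical scales differ between genes.

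In AKDH uterus 7 of the 9 members were below WT, with a median of -0.27. Gli2 read -0.98, 0.14 and -0.11 against 0.25, 0.36 and 0.40 in WT, and was lower by -0.65 (interval -1.13 to -0.17, adjusted p = 0.101), or by -0.88 (adjusted p = 0.0341) without AKDH uterus replicate 2 and by -0.32 (adjusted p = 0.201) without AKDH uterus replicate 1. Replicate 1 also had lower stromal markers (-0.60, against 0.29 and 0.56 in the other AKDH uterus arrays) and smooth muscle markers (-0.75, against 0.49 and 0.73). Its urothelium markers (1.25, against 0.47 and 0.19) and epithelium markers (0.44, against -0.19 and -0.19) were higher, and the part of these markers in the AKDH values was not tested. Gli3 differed by -0.78 (interval -1.40 to -0.16, adjusted p = 0.125), or by -0.44 (adjusted p = 0.344) without AKDH uterus replicate 1, and Smo by -0.29 (interval -0.56 to -0.03, adjusted p = 0.169). Hhip was above WT by 1.40, with arrays at 0, 1.21 and 2.29 (interval -0.02 to 2.82, adjusted p = 0.225). In AKO uterus the Ihh arrays, at 0, -0.04 and -0.08, were within the WT range, a difference of 0.02 whose interval was wide (-1.10 to 1.14). Shh differed from WT by at most 0.08 in any mutant uterus, with an interval of -0.27 to 0.11 in AHDK.

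Some other pathway genes were called in uterus. Of all genes, 0.0903% were called there for AKO, 0.973% for DKO, 6.58% for AKDH and 3.53% for AHDK. In AKDH 1 of 17 transducers rose, Prkacb, a catalytic subunit of protein kinase A (0.42, adjusted p = 0.0421). Another 2 fell, Stk36, the Fused kinase (-0.49, adjusted p = 0.0108), and Arrb2, a beta-arrestin (-0.85, adjusted p = 0.0159). Of the 15 targets there, Ccnd2 rose (1.65, adjusted p = 0.00953) and Hand2 fell (-1.40, adjusted p = 0.0325). Hand2 is a stromal factor induced by progesterone, and it was the 1 called gene of 13 measured on the axis of progesterone and Ihh. In AKO, DKO and AHDK uterus 0 of those 13 were called. Among the genes of primary cilium transport, Dync2h1 fell in AKDH uterus (-0.58, adjusted p = 0.0445) and in AHDK uterus (-0.75, adjusted p = 0.0247). The mean level of 54 small nucleolar RNA genes moved with genotype in uterus, at 0.60 to 1.00 in WT, 0.01 to 0.47 in AKO, -0.11 to 0.16 in DKO, -0.46 to -0.20 in AKDH and -0.23 to 0.21 in AHDK. Its part in the uterine differences was not tested.

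Ptch1 and Gli1, the readout genes, moved together from array to array in uterus. Over the 15 uterus arrays Pearson's r was 0.88 and Spearman's rho 0.94, both with a permutation p of 1e-05, the smallest the 100000 permutations can give (adjusted p = 0.0001 over 10 relations). Without the 2 arrays farthest from the median of Ptch1, r was 0.83. With genotype means removed, r was 0.89 (permutation p = 0.00029, adjusted p = 0.0029). Ihh followed neither of them closely, with r of 0.36 for Ptch1 (permutation p = 0.182, adjusted p = 0.259) and 0.39 for Gli1 (permutation p = 0.157, adjusted p = 0.259). For Ihh and Hhip r was 0.46 (permutation p = 0.0852, adjusted p = 0.17) and rho was 0.61 (permutation p = 0.0184, adjusted p = 0.0369). Their r was 0.30 without the 2 farthest arrays and 0.34 with genotype means removed (permutation p = 0.346, adjusted p = 0.551). Gli2 and Gli3 had an r of 0.85 in uterus (adjusted p = 0.001, rho 0.79), which was 0.68 without the 2 farthest arrays and 0.74 with genotype means removed (permutation p = 0.0659, adjusted p = 0.165). The labels give no batch for these arrays. The part in these relations of an effect shared between arrays, other than genotype, was not tested.

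In vas deferens Shh and Ptch1 had an r of 0.71 over 15 arrays (permutation p = 0.00188, adjusted p = 0.0047, rho 0.66), and 0.74 without the 2 farthest arrays. With genotype means removed r was 0.14 (permutation p = 0.661, adjusted p = 0.785). Where genotype means were kept, here and in uterus, the permutations moved arrays across genotypes, so their p takes in differences between genotypes. Ptch1 and Gli1 had no called relation there (r -0.13, permutation p = 0.651, adjusted p = 0.651), in a tissue where Gli1 varied little. Whether the relation of Ptch1 to Gli1 differs between uterus and vas deferens was not tested.

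**Figure D5:**
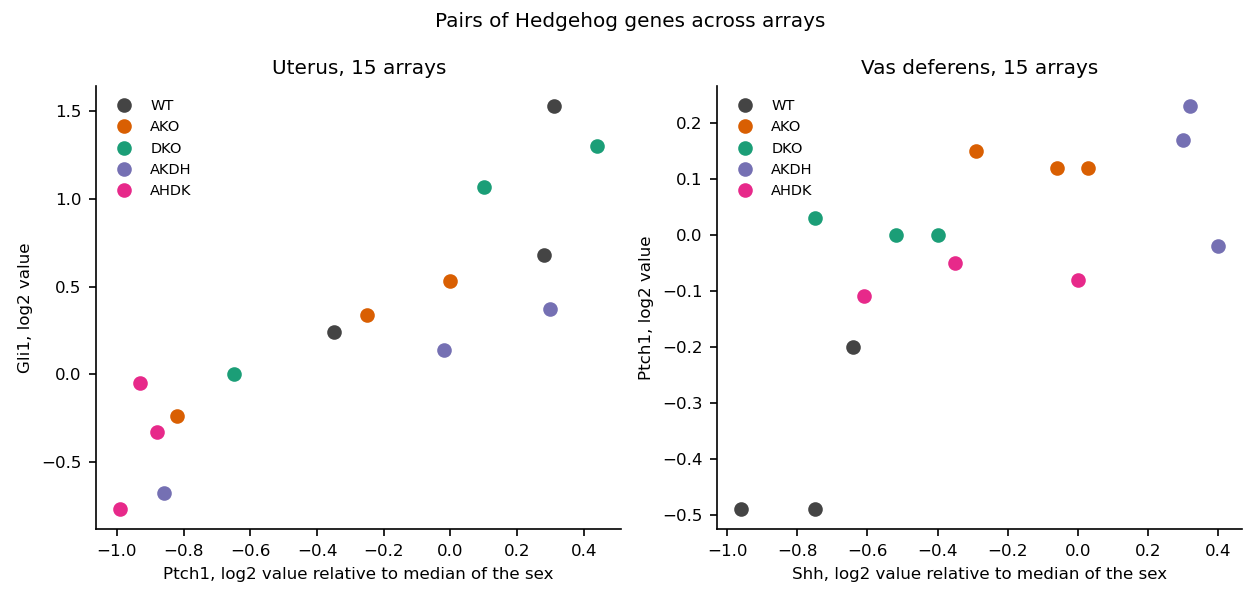
Gli1 against Ptch1 in the 15 uterus arrays (left) and Ptch1 against Shh in the 15 vas deferens arrays (right), in log2 relative to the median of the sex, with 1 point per array coloured by genotype. On the left the points follow 1 band through all genotypes (r 0.88), and on the right WT lies at the lower left and AKDH at the upper right (r 0.71).

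In the oviduct 0 of 9 members were called between AKO and WT by limma, as were 0% of all genes, and no member had an unadjusted p below 0.05. Without WT oviduct replicate 2 all 9 had a limma adjusted p of 0.999, with Ptch1 at -0.27 and Hhip at -0.27. Between WT oviduct and WT uterus 1 of 9 was called, where 23.9% of all genes were. Gli1 read 0.01, -0.19 and -0.99 in WT oviduct and was lower than in WT uterus by -1.21 (interval -2.05 to -0.36, adjusted p = 0.0374). Without WT oviduct replicate 2, the array with male markers, the difference was -1.31 with an adjusted p of 0.0526. The call was also lost without WT oviduct replicate 3 (-0.91, adjusted p = 0.183), WT uterus replicate 1 (-1.28, adjusted p = 0.0595) or WT uterus replicate 3 (-0.85, adjusted p = 0.171). Gli3 was lower by -0.94 (interval -1.65 to -0.22, adjusted p = 0.0554), or by -1.12 (adjusted p = 0.0442) without WT oviduct replicate 2 and by -0.59 (adjusted p = 0.282) without WT oviduct replicate 3. WT oviduct replicate 3 also had lower stromal markers (-1.62, against -0.20 and -0.13 in the other WT oviduct arrays), smooth muscle markers (-0.99, against -0.02 and 0.09) and endothelium markers (-1.01, against -0.19 and -0.12). Their part in the Gli1 and Gli3 differences was not tested.

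In AKO, Dhh was the 1 member of 9 called between the female tissues, where 17.8% of all genes were. It read -0.17, -0.13 and -0.20 in AKO oviduct and 0.26, 0.13 and 0.37 in AKO uterus, a difference of -0.42 (interval -0.64 to -0.20, adjusted p = 0.00888). With the animal as a block its adjusted p was 0.0705. For no member did the AKO effect differ between oviduct and uterus at the threshold (0 of 9, limma, and 0% of all genes), and 0 members had an unadjusted p below 0.05. No member was called in that test without WT oviduct replicate 2 either. All 11 measured genes of primary cilium transport were higher in oviduct in both genotypes, for example Ift88 (1.51, adjusted p = 3.28e-09 in WT), as were 9 of 10 motile cilia markers in WT and 10 of 10 in AKO. Stk36, which also acts in motile cilia, was higher by 1.57 (adjusted p = 6.03e-08). On the axis of progesterone and Ihh, 5 of 13 genes were lower in WT oviduct and 0 higher, among them the progesterone receptor Pgr (-1.12, adjusted p = 0.00369) and Msx1, a homeobox gene of uterine epithelium and stroma (-2.33, adjusted p = 1.15e-05). Of all genes, 14.5% were higher and 9.39% lower in WT oviduct than in WT uterus. Without WT oviduct replicate 2 the values were 1.54 for Ift88 (adjusted p = 3.33e-08), 1.63 for Stk36 (3.19e-07), -1.11 for Pgr (0.0115) and -2.12 for Msx1 (9.51e-05).

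The groups of a sex were also set in order of their means. Ihh in males was highest in AKO epididymis, with WT epididymis next and not overlapping it. Ptch1 in males was lowest in WT vas, with AHDK vas next and not overlapping it. In females Ptch1 was lowest in AHDK uterus, clear of AKO uterus, the next in order.

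The genes whose values were most like those of a member over the 21 arrays of a sex were named by Pearson's r, as a description. In females Gli1 was most like Tro (r 0.95), Col16a1 (0.94), Smim41 (0.93) and the Hedgehog-release gene Scube1 (0.92). Female Ptch1 was most like Wfdc1 (0.88) and Cacna1d (0.88), and Cacna1d (0.88) was again the most like Ptch1 in males, with Erbb3 (0.88). Female Ihh was most like Pex11a (0.86) and Prpf40b (0.86), and male Ihh most like Zc2hc1c (0.94) and Twf2 (0.93). Hhip was most like Pnck (0.91) and Erc2 (0.82) in females and Reck (0.88) and Dchs1 (0.88) in males, and male Gli1 most like Fndc8 (0.91) and Dnah9 (0.89). These arrays may share animals and differ in tissue and genotype, so the values say only that the genes had like profiles.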

How the data were processed

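Total RNA from fresh tissue was extracted with a Qiagen RNeasy kit, amplified with an Ambion WT kit and labelled with biotin, per the labels' protocols. The deposited table holds log values for 28856 probe sets, taken as log2 values. The authors' log base and how they summarised and normalised the arrays are details not given in the sources used here. Centring on the median of each sex was read from the values, as was the array median, which lay between -0.0538 and 0.0371. Higher values were taken as more RNA. The platform table gave 21789 probe sets 1 symbol, 1621 several and 5446 none. A gene's value is the mean over its probe sets with 1 symbol.

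Genes were fitted with limma 3.58.1 (lmFit, eBayes) in R 4.3.3 per tissue, with every genotype in the fit, and per sex for comparisons between tissues. Benjamini-Hochberg adjustment ran over 19938 genes, and a gene was called below 0.05. Replicates are named as biological in the labels. The fit was tested on simulated data.

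All 9 members are given, with up to 4 called genes of each pathway list and comparison by smallest adjusted p, and, for 4 members in each sex, the genes with the highest Pearson r. The members and lists were chosen with earlier results of these data known, so that counts over them are descriptions. Some pathway genes are not reported here. Alternatives were probe sets fitted alone, quantile normalisation, array medians subtracted, compared groups alone, array weights, a robust prior, a filter on SD, each array or the 3 libraries set apart left out, and a replicate block.

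Arrays with the same replicate number deviated together (all 3 correlations over 0.1) in 4 of 42 pairs of groups: WT vas with WT epididymis (0.287, 0.176 and 0.281), AKO vas with AKO epididymis (0.143, 0.141 and 0.19), AKO uterus with AKO oviduct (0.161, 0.457 and 0.461), and WT with AKO oviduct (0.222, 0.289 and 0.48). The numbers were taken to pair the male tissues and the AKO female tissues, but the sample titles name no animal. WT and AKO oviduct came from different animals, so these correlations cannot tell a shared animal from another effect tied to the number.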

Additional observations from a re-analysis of the deposited data

Results flagged for a closer look

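The AKO effect on Ptch1 was flagged because the test of the difference between epididymis and vas deferens passed the threshold (-0.67, limma adjusted p = 0.0283). That fit had no block. With the animal as a block the adjusted p was 0.147, and with the compared groups fitted alone it was 0.0947. Ptch1 rose by 0.52 in AKO vas, where all 3 AKO arrays lay above all 3 WT arrays, and in epididymis the groups overlapped (-0.29, 0.01 and 0.10 in AKO, 0.40, 0.03 and -0.17 in WT). The call was lost in 7 of the 12 fits that left out 1 array: WT vas replicates 1 or 2, any AKO vas replicate, WT epididymis replicate 1 (-0.51, adjusted p = 0.0558) or AKO epididymis replicate 1 (-0.55, adjusted p = 0.0664).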

How the results depend on the processing

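No member's called direction reversed under any setting run. Of results called for a member, 183 kept and 36 lost their call under the other settings, and 127 kept and 65 lost it when 1 array was left out. The numbers below are how many of the 9 members were called. The share of all genes called can also change with the setting and is not given beside them. They therefore describe the calls and are no result about the members. With only the compared groups fitted, the count was 1 for AHDK against WT in uterus, and 0 for DKO and for AHDK against WT and for AKDH against AHDK in vas and for the AKO effect between epididymis and vas. That fit also ended the calls of Gli1 in WT oviduct against uterus (adjusted p = 0.106) and of Ptch1 in WT epididymis against vas (0.0816). With array weights it was 3 for AHDK against WT, 4 for AHDK against DKO, 2 for AKDH against AHDK and 6 for the F test in uterus. Also with weights it was 2 for AHDK against WT and 0 for AKDH against AHDK in vas, 1 for AKO in epididymis, 2 for AKO oviduct against uterus and 2 for the AKO effect between the male tissues. After quantile normalisation it was 0 for AHDK against WT and 1 for DKO against AKO in vas, 0 for WT oviduct against uterus and 1 for AKO epididymis against vas. With the genes of lowest SD left out it was 0 for AHDK in vas, 1 for AKO in epididymis and 2 for WT oviduct against uterus. Probe sets fitted alone and a robust prior each gave 1 for DKO against AKO in vas. Without the 3 libraries set apart it was 0 for AKDH against AHDK in vas, 1 for AKO in epididymis and 0 for the AKO effect between the male tissues.

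The replicate block gave 1 for AHDK against WT in uterus (Gli1, adjusted p = 0.0473). In vas AHDK against WT it moved the call from Ptch1 (adjusted p = 0.0861) to Shh (0.0436), and it ended the call of Dhh in AKO (0.0655) and of Ihh in the F test (0.0651). These within-tissue samples share only a number. Across the tissues the replicate block gave 0 for oviduct against uterus in WT (Gli1, 0.0835), whose numbers do not pair (correlations 0.216, -0.0682 and -0.0356), and, with the number as the animal, 0 in AKO, and 0 for the AKO effect between the male tissues, while Gli3 gained a call in AKO epididymis against vas (0.0436).

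Leaving out 1 array gave 0 to 1 for AKDH and for the F test in uterus, 1 to 2 for AKO, 0 to 1 for DKO, 2 to 4 for AKDH, 0 to 1 for AHDK, 0 to 2 for DKO against AKO, 0 to 1 for AKDH against AHDK and 2 to 4 for the F test in vas. It gave 0 to 1 for AKO in epididymis, 0 to 2 for WT and 1 to 2 for AKO oviduct against uterus, 4 to 5 for WT and 1 to 2 for AKO epididymis against vas, and 0 to 1 for the AKO effect between the male tissues. The cause of these changes was not tested. Fitting the compared groups alone was not run for oviduct, epididymis and the F tests, which it leaves as they are. The number of arrays limits the precision.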
